A study of Rattus norvegicus with 12 samples.

Results

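The response of wild-type rat chondrocytes to FGF18 was described from 6 of the 12 libraries of the series. These were the 3 libraries of WT RCS cultured with FGF18 and the 3 of WT RCS cultured with vehicle, taken by their labels for genotype and treatment. RCS cells are chondrocytes that were established from a Swarm chondrosarcoma of the rat. Cells of both groups were grown in DMEM with 5% adult bovine serum, which was the vehicle, and FGF18 was added overnight to the treated cells. The other 6 libraries, which shared the filter, the scaling and the estimate of spread with these and are described only where the genotypes are compared, came from 1 CRISPR clone of the same line without functional FGFR3 and FGFR4 (FGFR3/4KO), cultured in the same 2 ways. QuantSeq 3′ libraries take reads only from the 3′ ends of mRNA, so counts do not grow with transcript length.

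Fibroblast growth factors bind receptor tyrosine kinases and signal through the RAS-ERK cascade, which induces ETS transcription factors and inhibitors of its own pathway. FGF18 is made around developing cartilage, where signalling through FGFR3 is known to restrain the division of growth plate chondrocytes. A chondrocyte secretes collagens and proteoglycans through the endoplasmic reticulum (ER) and Golgi and degrades material in lysosomes, whose genes are targets of the transcription factors TFEB and TFE3.

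Reads counted on genes ranged from 669585 to 947730 in the vehicle libraries and from 846957 to 1196647 in the FGF18 libraries. At this depth 3 reads correspond to 2.51 to 4.48 CPM (read counts scaled to the total of each library), a floor that covers counting error only. Of 32754 genes in the count tables, 7378 had enough reads to be tested, and 1418 of these carry a gene name. The 10 most abundant genes took 9.56 to 9.97% of the reads with vehicle and 12.7 to 13.1% with FGF18. The FGF18 libraries also differed more among themselves, with a chi-square per degree of freedom of 2.99 to 5.67 between pairs against 1.56 to 1.63 between vehicle pairs, and FGF18 replicate 3 was the farthest from the others. Levels below are CPM scaled by TMM, and a gene is said to have risen or fallen where edgeR's quasi-likelihood test gave a Benjamini-Hochberg adjusted p (FDR) under 0.05 over all tested genes.

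FGF18 changed 1898 genes, and rises and falls were about equal in number. FGF18 raised 950 genes (12.9% of those tested) and lowered 948 (12.8%), while the median log2 fold change over all tested genes was 0.02. Among the genes that rose the median log2 fold change was 0.93, with the middle 50% between 0.66 and 1.40, and 431 of them rose by at least 1 on the log2 scale. The genes that fell had a median of -0.88, with the middle 50% between -1.25 and -0.64, and 393 fell by at least 1. Large changes were more often rises, since 106 genes rose by at least 2 on the log2 scale and 35 fell by as much. All 3 FGF18 libraries lay above all 3 vehicle libraries in 20.2% of tested genes and below them in 19.5%. Among genes with a name, 147 rose (10.4%) and 194 fell (13.7%), so that falls are somewhat over-represented in what can be named.

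The share of genes called grew with their level, from 14.96% in the lowest of 4 equal groups by level to 39.6% in the highest. The median SE of a log2 fold change was 0.42 in the lowest group and 0.15 in the highest, and the median size of a called change was 1.61 and 0.66. A small change could therefore be seen only in abundant genes.

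**Figure D1:**
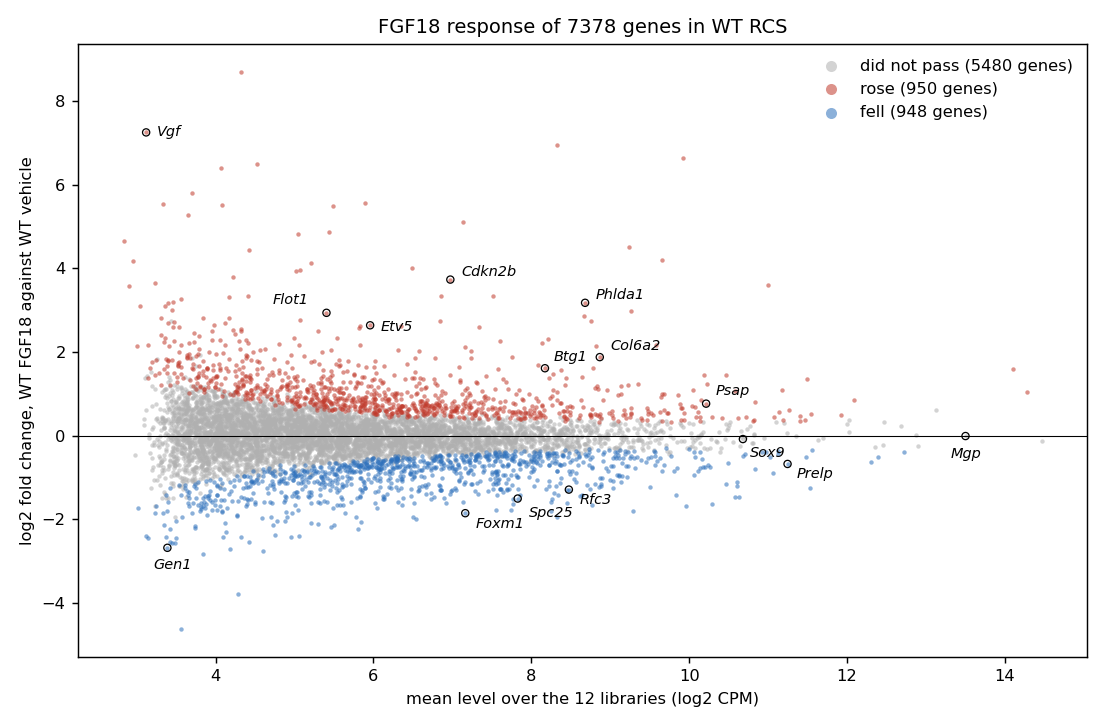
Log2 fold change of WT FGF18 against WT vehicle (vertical axis) against the mean level over the 12 libraries in log2 CPM (horizontal axis), 1 point per tested gene. The 950 genes that rose (red) and 948 that fell (blue) spread to both sides of 0, the largest changes are rises, and Sox9 and Mgp lie near 0 at high levels.

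Some of the most extreme changes were in genes without a name, and 4 of them are given by identifier. ENSRNOG00000011821.4 stood at 15.9, 13.6 and 0.999 CPM under vehicle and 955, 1157 and 1373 CPM under FGF18 (log2 fold change 6.96 ± 0.31 (SE), FDR = 1.74e-15). ENSRNOG00000008478.5 had 0 reads in each vehicle library and stood at 47.5, 60.3 and 73.9 CPM with FGF18, at least 49.6-fold above the level that 3 reads over the vehicle group would give. It passed the filter only through the FGF18 group and so had to differ. The deepest falls were of ENSRNOG00000022030.3, from a mean of 11.2 to 0.273 CPM, and of ENSRNOG00000055217.1, from 15.2 to 0.911 CPM. In the other 3 genes the groups did not overlap.

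The chondrocyte identity of the cells was checked in markers of the lineage. Only markers that carry a name here could be listed, and others of the lineage were not examined. Of 9 such markers, 8 were abundant enough to be tested and only Epyc was not. Sox9, the transcription factor that specifies chondrocytes, was at 1401, 1406 and 1510.0 CPM under vehicle and 1374, 1262 and 1438 CPM under FGF18. Its groups overlapped (log2 fold change -0.08, FDR = 0.647). Mgp, the matrix inhibitor of calcification, was among the most abundant genes at 12036, 11089 and 11337 CPM under vehicle and 10904, 12008 and 11247 CPM under FGF18, again with overlapping groups. Col11a2, a chain of a cartilage collagen, also gave overlapping groups at 701 ± 100.3 CPM under vehicle and 668 ± 32.2 CPM under FGF18 (mean ± SD). The leucine-rich proteoglycans did change. Prelp stood at 2178, 2286 and 2044 CPM under vehicle and 1456, 1293 and 1309.7 CPM under FGF18, with all FGF18 libraries below vehicle (log2 fold change -0.68 ± 0.11 (SE), FDR = 3.74e-05). Fmod (fibromodulin) fell in the same manner, from 447 ± 35.5 CPM under vehicle to 301 ± 37.9 CPM under FGF18 (log2 fold change -0.57 ± 0.13 (SE), FDR = 0.00206). Mia, a small secreted protein of cartilage, rose from 1877 ± 126 CPM under vehicle to 2425 ± 96.2 CPM under FGF18 (log2 fold change 0.37 ± 0.11 (SE), FDR = 0.0158), and lost its call without vehicle replicates 2 and 3 or FGF18 replicate 2 in turn (log2 fold change 0.33 to 0.37). Chad (log2 fold change 0.83, FDR = 0.139) and Matn2 (-0.75, FDR = 0.134) did not pass.

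The named markers of other cell types were nearly absent. Of 20 markers of neurons, glia, hepatocytes, endothelium, blood, immune cells and fibroblasts, 17 were too low to be tested. The other 3 were Thy1 (-0.57, FDR = 0.282), Syt1 (0.92, FDR = 0.0926) and Alb, which passed. Alb was at 5.80, 9.52 and 1.999 CPM under vehicle and 5.74, 25.8 and 28.3 CPM under FGF18, so FGF18 replicate 1 lay among the vehicle libraries and the groups overlapped. Alb lost its call without vehicle replicates 1 and 3 or FGF18 replicates 2 and 3 in turn (log2 fold change 1.30 to 1.83), and its part in other results was not tested.

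Some transcripts known to be induced by ERK signalling rose with FGF18. Of 19 genes listed as ERK targets or feedback regulators, 10 were tested, of which 5 rose and 0 fell, where 12.9% of all tested genes rose and 12.8% fell. Their median log2 fold change was 1.11, beside 0.02 over all tested genes. Without Vgf, which could pass the filter only through the FGF18 group, 4 of 9 rose and the median was 0.80. Phlda1, a pleckstrin homology-like protein induced by growth factors, stood at 141, 118 and 136 CPM under vehicle and 1185, 1167 and 1221 CPM under FGF18. The libraries within each group lay close together, far from those of the other group (log2 fold change 3.18 ± 0.15 (SE), FDR = 4.56e-15). Etv5, an ETS transcription factor downstream of FGF receptors, was at 11.6, 8.16 and 12.99 CPM under vehicle and 59.02, 68.9 and 83.8 CPM under FGF18 (log2 fold change 2.64 ± 0.29 (SE), FDR = 8.83e-08). Every FGF18 library lay several times above every vehicle library.

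Vgf, which encodes a secreted neuropeptide precursor induced by growth factors, had 0 reads in all 3 vehicle libraries and 22, 19 and 25 reads with FGF18. Against the level that 3 reads over the whole vehicle group would give, it was at least 18.3-fold higher with FGF18. A gene absent from vehicle has to differ once it passes the filter on low counts, so its inclusion is not independent of the result. Atf3, a stress-responsive transcription factor, rose from 15.3 ± 8.26 CPM under vehicle to 38.9 ± 10.8 CPM under FGF18 (log2 fold change 1.43 ± 0.33 (SE), FDR = 0.00174). Elk3, an ETS factor that partners serum response factor, rose less, at 40.4 ± 8.64 CPM under vehicle and 62.5 ± 5.58 CPM under FGF18 (log2 fold change 0.64 ± 0.22 (SE), FDR = 0.0285), and lost its call without vehicle replicates 1 and 3 or FGF18 replicate 1 in turn (log2 fold change 0.55 to 0.56) and in 3 other fits.

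The remaining ERK-responsive genes did not pass. Dusp1, a phosphatase of MAP kinases, was at 1.45, 8.16 and 5.996 CPM under vehicle and 13.9, 12.4 and 20.9 CPM under FGF18. All FGF18 libraries were above vehicle (log2 fold change 1.51, FDR = 0.0625), and the low counts left a wide error of 0.59. Like Vgf, Dusp1 passed the filter on low counts only through the FGF18 group. Ets2 (0.57, FDR = 0.0716) and Spred1, an inhibitor of RAS signalling (0.80, FDR = 0.185), were likewise positive without passing. Klf10 was at -0.18 and 1 other member at -0.34.

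The list for the MAP kinase cascade held no tested RAF, MEK or ERK gene. Of its 9 tested genes, 0 rose and 1 fell, a share of falls near the 12.8% over all tested genes. That gene was Mapk14, the p38 alpha kinase, at 168, 159 and 165 CPM under vehicle and 99.2, 99.5 and 92.4 CPM under FGF18 (log2 fold change -0.75 ± 0.15 (SE), FDR = 2.92e-04). The groups stood clearly apart with narrow spread. Frs2, the adaptor that docks to FGF receptors, was at 159 ± 22.1 CPM under vehicle and 151 ± 23.2 CPM under FGF18 with overlapping groups (FDR = 0.79). Mapkapk2, a kinase activated by p38, did not pass either (log2 fold change -0.08, FDR = 0.73). The receptors Fgfr1 to Fgfr4 were not analysed by name.

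Among 10 tested genes of insulin, PI3K and mTOR signalling, 1 rose and 3 fell, beside 12.9% and 12.8% over all tested genes. The falls numbered 1 by DESeq2 and when vehicle replicate 1, 2 or 3 or FGF18 replicate 1 or 2 was left out in turn. Sh2b2, an adaptor recruited to the insulin receptor, was at 89.9, 91.1 and 60.96 CPM under vehicle and 23.8, 42.1 and 35.7 CPM under FGF18 (log2 fold change -1.25 ± 0.22 (SE), FDR = 9.07e-05). All FGF18 libraries lay below vehicle. Grb10, an adaptor that dampens the insulin receptor, fell from 27.1 ± 2.004 CPM under vehicle to 13.8 ± 1.33 CPM under FGF18 (FDR = 0.0365) and lost its call without vehicle replicates 1, 2 and 3 or FGF18 replicates 1 and 2 in turn (log2 fold change -1.03 to -0.88) and in 1 other fit. Flcn (folliculin), which acts on the Rag GTPases that recruit mTORC1 to lysosomes, was the member that rose, at 11.6, 10.9 and 11.99 CPM under vehicle and 40.99, 39.2 and 40.7 CPM under FGF18 (log2 fold change 1.79 ± 0.30 (SE), FDR = 4.51e-05). Its 3 libraries in each group were almost identical. The genes coding for the kinases Pdpk1 (-0.35), Rps6kb1 (-0.30) and Gsk3b (0.32) did not pass.

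**Figure D2:**
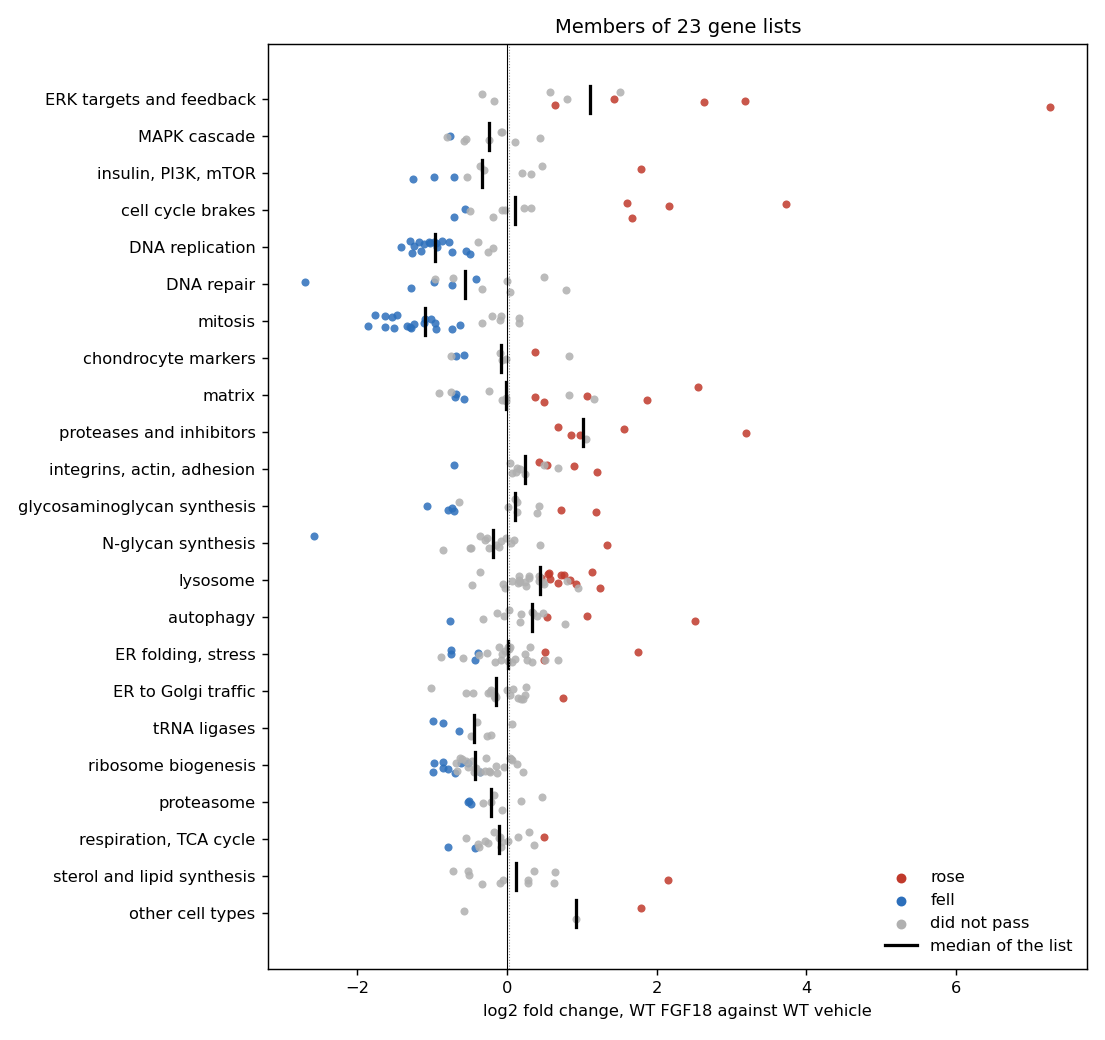
Log2 fold change of WT FGF18 against WT vehicle (horizontal axis) for the tested members of 23 gene lists (rows), 1 point per gene, red where it rose, blue where it fell and grey where it did not pass, with a black bar at the list's median. DNA replication and mitosis lie almost wholly to the left of 0 and the lysosome list mostly to the right.

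Genes of the cell cycle inhibitor list did not move together. The list also held p53 targets that are not inhibitors of the cycle, such as Mdm2 and Ppm1d. Of 12 tested genes, 4 rose, 2 fell and 6 did not pass, beside 12.9% and 12.8% over all tested genes, with a median log2 fold change of 0.10. Cdkn2b, which encodes the CDK4 and CDK6 inhibitor p15, had the largest rise of the list at 31.9, 32.6 and 20.99 CPM under vehicle and 293, 343 and 485 CPM under FGF18. The highest vehicle library was far below the lowest FGF18 library (log2 fold change 3.73 ± 0.22 (SE), FDR = 5.21e-13). Gadd45a, a growth arrest and DNA damage gene, was at 46.4, 48.95 and 33.98 CPM under vehicle and 137, 137 and 132 CPM under FGF18 (log2 fold change 1.67 ± 0.20 (SE), FDR = 4.66e-07). Btg1, an antiproliferative protein, was at 175, 154 and 179 CPM under vehicle and 487, 517 and 552 CPM under FGF18 (log2 fold change 1.61 ± 0.15 (SE), FDR = 4.03e-09). Ccng2 (cyclin G2) also rose (log2 fold change 2.17, FDR = 0.0143), from a level of only a few reads, and lost its call without vehicle replicates 2 and 3 in turn (log2 fold change 1.44 to 2.11). Ccng2 passed the filter on low counts only through the FGF18 group, so its inclusion was not independent of the result.

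Cdkn1a, which encodes the CDK inhibitor p21, went the other way. It was at 300.0, 257 and 235 CPM under vehicle and 190.2, 172 and 175 CPM under FGF18, and every FGF18 library lay below every vehicle library (log2 fold change -0.55 ± 0.14 (SE), FDR = 0.00414). Sesn1, like Cdkn1a a target of p53, fell from 41.5 ± 4.29 CPM under vehicle to 25.4 ± 2.19 CPM under FGF18 (FDR = 0.0428) and lost its call without vehicle replicates 1, 2 and 3 or FGF18 replicates 1, 2 and 3 in turn (log2 fold change -0.79 to -0.65) and in 3 other fits. Mdm2 (-0.02, FDR = 0.938), Ccng1 (0.32, FDR = 0.159), Btg2 (-0.07, FDR = 0.896) and Ppm1d (-0.50, FDR = 0.285), also p53 targets, did not pass. Btg3 (-0.18, FDR = 0.535) and Tob1 (0.23, FDR = 0.63) did not pass either.

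Genes of cell division fell almost throughout. In the mitosis list 18 of 24 tested genes fell and 0 rose (median log2 fold change -1.09), beside 12.8% falls over all tested genes. Leaving out a single WT library gave 16 to 18 falls. In the DNA replication list 17 of 20 fell and 0 rose, with a median of -0.96, and 13 to 16 fell when a library was left out. All FGF18 libraries were below all vehicle libraries for 19 and 17 of these genes, beside 19.5% of all tested genes and 20.5% of those with a name. In a bulk library, fewer dividing cells and less of each transcript per cell cannot be told apart.

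Foxm1, the transcription factor that drives genes of G2 and mitosis, was at 142, 122 and 138 CPM under vehicle and 31.97, 40.2 and 39.4 CPM under FGF18. Each FGF18 library lay far below each vehicle library (log2 fold change -1.86 ± 0.19 (SE), FDR = 2.24e-08). Spc25, a subunit of the NDC80 complex at the kinetochore, was at 277, 247 and 234 CPM under vehicle and 89.4, 84.2 and 92.4 CPM under FGF18 (log2 fold change -1.51 ± 0.15 (SE), FDR = 3.08e-08). The spread within each group was small against the difference. Cdk1, the kinase of mitotic entry, was at 82.6, 67.99 and 76.95 CPM under vehicle and 28.7, 22.96 and 30.8 CPM under FGF18 (log2 fold change -1.47 ± 0.20 (SE), FDR = 2.21e-06).

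Aurkb, the kinase of the chromosomal passenger complex, fell at a low level, 15.9, 21.8 and 15.99 CPM under vehicle and 7.38, 3.83 and 3.70 CPM under FGF18 (log2 fold change -1.76 ± 0.44 (SE), FDR = 0.00387). Nusap1, a protein of the mitotic spindle, fell from 308 ± 27.7 CPM under vehicle to 124 ± 30.1 CPM under FGF18 (log2 fold change -1.29 ± 0.17 (SE), FDR = 1.68e-06). Ncapg2, a subunit of condensin II, and Kif18a, a kinesin that aligns chromosomes, were among the 10 largest falls of all named genes, at log2 fold changes of -1.62 and -1.63. The members that did not pass were the anaphase-promoting complex subunits Anapc4, Anapc5 and Cdc27, the cohesin subunit Smc1a, the spindle protein Numa1 and Mphosph9, from -0.33 to 0.17.

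In the replication list the losses covered the helicase, the clamp loader and chromatin assembly. Rfc3, of the replication factor C clamp loader, was at 445, 488 and 477 CPM under vehicle and 175, 190.4 and 212 CPM under FGF18 (log2 fold change -1.29 ± 0.16 (SE), FDR = 1.12e-06). Rfc2, of the same complex, fell from 518 ± 36.05 CPM under vehicle to 252 ± 23.6 CPM under FGF18 (log2 fold change -1.04 ± 0.14 (SE), FDR = 1.84e-06). Chaf1b, a subunit of chromatin assembly factor 1, was at 130.4, 119.7 and 133 CPM under vehicle and 47.5, 42.1 and 55.4 CPM under FGF18, again with wide separation (log2 fold change -1.41 ± 0.18 (SE), FDR = 1.67e-06). Mcm6, of the replicative helicase, was at 217, 227 and 247 CPM under vehicle and 117, 122 and 121 CPM under FGF18 (log2 fold change -0.94 ± 0.14 (SE), FDR = 9.84e-06), and Mcm4 (-1.11) and Mcm7 (-0.73) fell as well. The 3 members that did not pass were Mcm9 (-0.39), Pole4 (-0.25) and Rnaseh2a (-0.19).

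Of 12 tested DNA repair genes, 5 fell and 0 rose, beside 12.8% falls over all tested genes, with a median of -0.56. Without vehicle replicate 3, 3 of the 12 fell. Gen1, a Holliday junction resolvase, had the largest fall of all named genes, from 14.8 ± 6.32 CPM under vehicle to 2.10 ± 1.94 CPM under FGF18 (log2 fold change -2.69 ± 0.62 (SE), FDR = 0.00174), at a level near the floor. Parpbp, a regulator of homologous recombination, was at 49.3, 70.7 and 64.96 CPM under vehicle and 22.95, 24.9 and 29.6 CPM under FGF18 (log2 fold change -1.28 ± 0.22 (SE), FDR = 7.54e-05). Ung, the uracil-DNA glycosylase, was at 94.2, 93.8 and 92.9 CPM under vehicle and 56.6, 55.5 and 57.9 CPM under FGF18 (log2 fold change -0.72 ± 0.18 (SE), FDR = 0.00324). The 3 libraries of each group were nearly equal for Ung.

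Promoter sequences are shown for the division genes because they fell together. The windows were taken from RefSeq (rat build GRCr8) and run from 250 bases before to 50 bases after each annotated start. Of the 1418 tested genes with a name, 1121 had such a window. Genes of mitosis are known for CCAAT boxes and for the cell cycle homology element TTTGAA, and replication genes for E2F sites, searched here as TTTCCCGC, TTTGGCGC or TTTGCCGC, each on both strands. TTTGAA was found in 9 of 19 mitosis promoters (47.4%), beside 10.97% of the promoters of tested named genes and 18.1% of all 27457 promoters. CCAAT was found in 11 of the 19 (57.9%), beside 38.98% and 37.7%. The E2F-like motifs were found in 6 of 19 replication promoters (31.6%), beside 4.82% and 1.96%. A match is a description of letters and does not show that a factor binds there.

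The 150 bases before the start are given for 2 members of each list, those with the smallest FDR among members with the motif in that stretch. They are written 5′ to 3′ on the strand of the gene. In Spc25 (chr3:74396719-74396868, minus strand) and Cdk1 (chr20:19265143-19265292, plus strand), capitals mark CCAAT and TTTGAA on either strand. In Mcm6 (chr13:42404353-42404502, minus strand) and Dtl (chr13:105685922-105686071, minus strand), capitals mark the E2F-like motif. No marked motifs overlap.
Spc25: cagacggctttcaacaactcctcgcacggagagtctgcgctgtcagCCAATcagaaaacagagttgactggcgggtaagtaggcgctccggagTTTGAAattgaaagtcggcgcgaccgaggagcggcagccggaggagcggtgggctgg
Cdk1: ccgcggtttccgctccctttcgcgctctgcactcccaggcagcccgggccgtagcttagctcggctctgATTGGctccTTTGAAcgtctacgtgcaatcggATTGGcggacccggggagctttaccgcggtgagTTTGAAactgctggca
Mcm6: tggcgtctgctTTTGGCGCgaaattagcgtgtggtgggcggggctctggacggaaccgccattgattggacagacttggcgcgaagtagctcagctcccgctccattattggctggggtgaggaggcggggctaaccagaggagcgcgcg
Dtl: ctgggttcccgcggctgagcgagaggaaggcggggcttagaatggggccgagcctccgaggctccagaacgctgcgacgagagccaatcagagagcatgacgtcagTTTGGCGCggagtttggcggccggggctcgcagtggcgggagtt
Cdk1 held each of its motifs 2 times, at -81 and -49 for CCAAT and at -72 and -16 for TTTGAA, counted to the first base of the motif on the printed strand. In Spc25 the CCAAT box at -104 lay upstream of TTTGAA at -57. Dtl, which targets proteins for degradation during replication, fell from 23.2 ± 4.99 CPM under vehicle to 9.71 ± 1.55 CPM under FGF18 (log2 fold change -1.27 ± 0.33 (SE), FDR = 0.00579) and had its motif at -44, while that of Mcm6 was at -139. Foxm1 was not among the genes with a window.

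Some genes of growth and protein synthesis fell as well. Of 32 tested genes of ribosome biogenesis, 9 fell and 0 rose (median log2 fold change -0.43), beside 12.8% falls over all tested genes. Without vehicle replicate 3, 5 of the 32 fell, closer to that share. Pa2g4, a growth-regulated protein of ribosome assembly, was at 600.0, 551 and 559.6 CPM under vehicle and 312, 293 and 269 CPM under FGF18 (log2 fold change -0.97 ± 0.13 (SE), FDR = 1.84e-06). Lyar, a nucleolar protein, was at 186, 165 and 178 CPM under vehicle and 91.8, 85.1 and 89.9 CPM under FGF18 (log2 fold change -0.98 ± 0.17 (SE), FDR = 5.63e-05). In both genes all FGF18 libraries lay well below vehicle. Tsr1, which matures the small subunit, fell from 338 ± 7.37 CPM under vehicle to 222 ± 29.6 CPM under FGF18 (log2 fold change -0.61 ± 0.13 (SE), FDR = 0.00102).

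Of 8 tested genes of tRNA ligases and their scaffold protein Aimp2, 3 fell and 0 rose, beside 12.8% falls over all tested genes. Eprs, the ligase for glutamate and proline, was at 758, 742 and 845 CPM under vehicle and 490.2, 441 and 367 CPM under FGF18 (log2 fold change -0.85 ± 0.12 (SE), FDR = 8.54e-06). Vars (valine, -0.98) and Dars (aspartate, -0.64) fell as well, while Wars (tryptophan) was at 0.06 (FDR = 0.809). In the proteasome list 3 of 9 fell and 0 rose, beside the same 12.8%. The genes that fell all code for subunits of the 19S regulatory particle. Psmc1, an ATPase subunit, was at 3361, 2650.3 and 3019 CPM under vehicle and 2038, 2264 and 2012 CPM under FGF18 (log2 fold change -0.52 ± 0.12 (SE), FDR = 0.00243). Psmd12 (-0.50) and Psmd11 (-0.48) changed by a similar amount, of which Psmd11 lost its call without vehicle replicate 3 (log2 fold change -0.38). The core subunit Psmb1 did not pass (-0.21, FDR = 0.286). In the list for respiration and the TCA cycle, 1 of 17 rose and 2 fell, a share below that of all tested genes (25.7%). These were Cox7a2l (0.50), which helps assemble respiratory supercomplexes, fumarate hydratase Fh (-0.79) and the complex I subunit Ndufa8 (-0.42). Cox7a2l lost its call without vehicle replicate 3 (log2 fold change 0.41). Fh lost its call without vehicle replicate 1 or FGF18 replicate 2 in turn (log2 fold change -0.69 to -0.66), and Ndufa8 lost its call without vehicle replicates 1, 2 and 3 or FGF18 replicates 1 and 3 in turn (log2 fold change -0.46 to -0.29) and in 1 other fit.

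**Figure D3:**
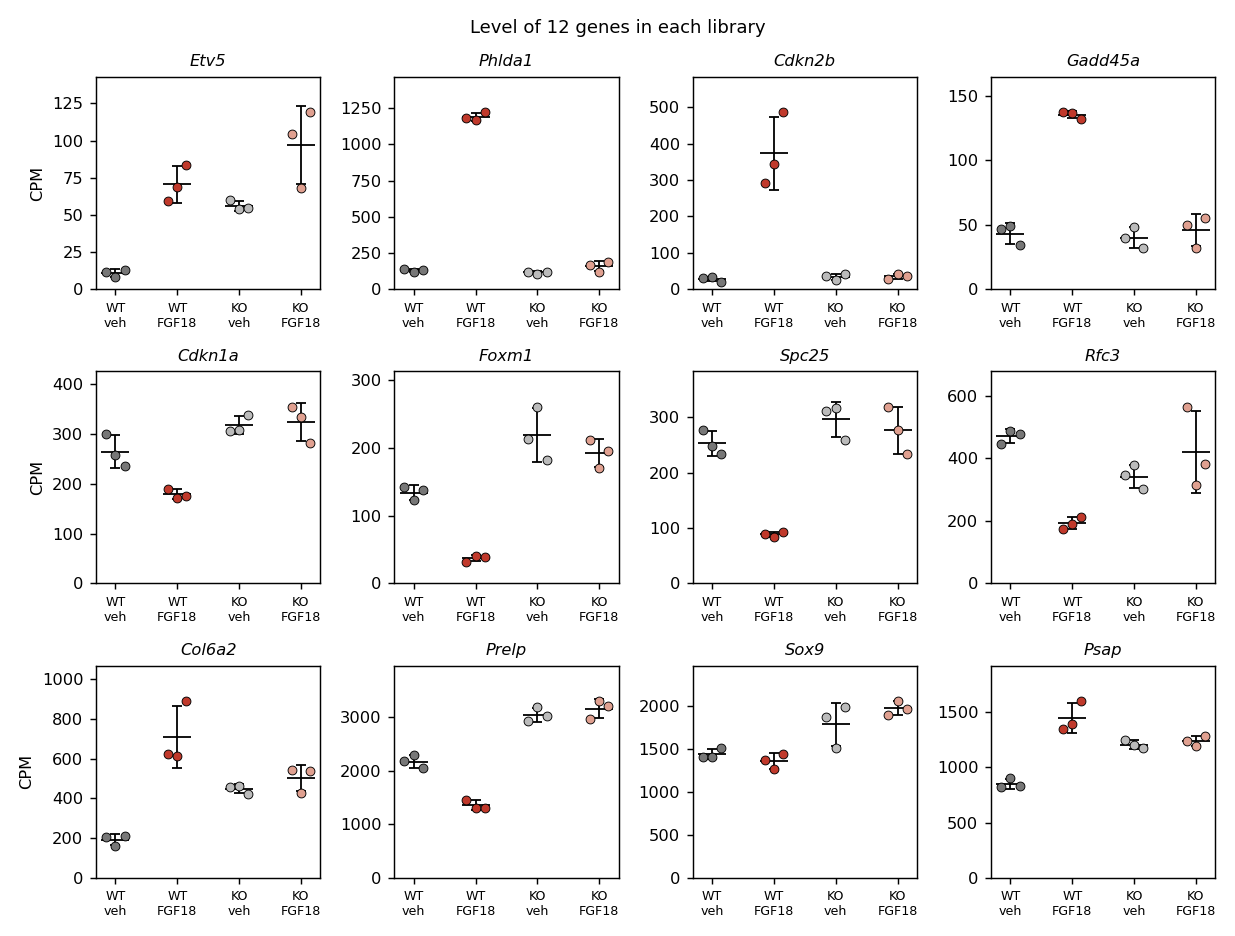
CPM (vertical axes, from 0) of 12 genes in each of the 12 libraries, with the mean (bar) and SD (whiskers, n = 3) per group: WT vehicle, WT FGF18, FGFR3/4KO vehicle (KO veh) and FGFR3/4KO FGF18 (KO FGF18). In WT RCS the FGF18 libraries of every gene except Sox9 lie wholly above or wholly below the vehicle libraries, and in those 11 genes the log2 fold change in FGFR3/4KO RCS is smaller in size.

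The matrix genes split into rises and falls. Of 28 listed genes 16 were tested, of which 5 rose and 3 fell, beside 12.9% and 12.8% over all tested genes. The median was -0.01. Without vehicle replicate 3, 3 rose. Col6a2, a chain of collagen VI of the pericellular matrix, was at 206, 160.5 and 211 CPM under vehicle and 625, 614 and 891 CPM under FGF18 (log2 fold change 1.88 ± 0.16 (SE), FDR = 6.71e-10). Every FGF18 library lay far above the highest vehicle library. Col5a2, a chain of fibrillar collagen V, was at 13.04, 6.80 and 4.997 CPM under vehicle and 59.8, 54.5 and 23.4 CPM under FGF18 (log2 fold change 2.55 ± 0.47 (SE), FDR = 1.77e-04), with FGF18 replicate 3 the lowest of its group. Col5a2 passed the filter on low counts only through the FGF18 group, so its inclusion was not independent of the result. Podnl1, a leucine-rich repeat protein of the podocan type, was at 100.0, 129 and 117 CPM under vehicle and 248, 242 and 237 CPM under FGF18 (log2 fold change 1.07 ± 0.16 (SE), FDR = 1.49e-05). The falls were Prelp and Fmod, given above with the markers, and Nid2 (nidogen 2), from 58.2 ± 12.2 CPM under vehicle to 36.1 ± 7.83 CPM under FGF18 (FDR = 0.0358), which lost its call without vehicle replicates 1 and 3 or FGF18 replicates 1 and 3 in turn (log2 fold change -0.75 to -0.49) and in 2 other fits.

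Of 6 tested genes for proteases and their inhibitors, 5 rose and 0 fell, beside 12.9% rises over all tested genes. Timp2, an inhibitor of matrix metalloproteinases, was at 348, 315 and 281 CPM under vehicle and 615, 543 and 551 CPM under FGF18 (log2 fold change 0.86 ± 0.14 (SE), FDR = 2.62e-05). Serpinb8, an intracellular serine protease inhibitor, was at 69.6, 73.4 and 76.95 CPM under vehicle and 143, 149 and 143 CPM under FGF18 (log2 fold change 0.98 ± 0.16 (SE), FDR = 2.85e-05). Both genes had groups that stood apart with small spread. The cathepsin inhibitors Cst3 (cystatin C, log2 fold change 0.68 ± 0.12 (SE), FDR = 1.13e-04) and Cstb (cystatin B, log2 fold change 1.56 ± 0.28 (SE), FDR = 1.43e-04) rose, and Timp3 did not pass (1.06, FDR = 0.0734).

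Of 13 tested genes of integrins, actin and adhesion, 4 rose and 1 fell, beside 12.9% and 12.8% over all tested genes. The rises numbered 2 without vehicle replicate 1, vehicle replicate 2 or FGF18 replicate 3 in turn, and the falls 0 without vehicle replicate 1 or FGF18 replicate 2. Arpc1b, a subunit of the Arp2/3 complex that branches actin, was at 222, 223 and 253 CPM under vehicle and 518, 463 and 639 CPM under FGF18 (log2 fold change 1.21 ± 0.14 (SE), FDR = 2.38e-07). Its paralogue Arpc1a did not pass, at a log2 fold change of 0.12 (FDR = 0.584), nor did the complex members Actr2 (0.25, FDR = 0.27) and Actr3 (0.07, FDR = 0.79). Rnd3, which loosens actin stress fibres, rose (0.90), as did Lasp1, a LIM protein of actin structures (0.54), and Itgb5, an integrin beta chain, with overlapping groups (0.44, FDR = 0.0475). Limk1, the kinase that inactivates cofilin, fell from 66.1 ± 8.21 CPM under vehicle to 40.7 ± 4.64 CPM under FGF18 (FDR = 0.0206) and lost its call without vehicle replicate 1 or FGF18 replicate 2 in turn (log2 fold change -0.64 to -0.60). Rnd3 lost its call without vehicle replicate 1 or FGF18 replicate 1 in turn (log2 fold change 0.56 to 0.76), and Lasp1 lost its call without vehicle replicate 2 or FGF18 replicate 3 in turn (log2 fold change 0.41 to 0.43).

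Scin (scinderin), which severs actin filaments, was among the largest rises of named genes at 0, 2.72 and 2.998 CPM under vehicle and 39.3, 35.4 and 13.6 CPM under FGF18 (log2 fold change 3.79 ± 0.59 (SE), FDR = 1.77e-05). It came from near the floor, and replicate 3 held less than the other FGF18 libraries. Flot1, a scaffold of membrane microdomains, was at 17.4, 13.6 and 12.99 CPM under vehicle and 97.6, 103 and 137 CPM under FGF18 (log2 fold change 2.94 ± 0.27 (SE), FDR = 3.59e-09). C1qtnf1, a secreted protein related to complement C1q, rose from 2.54 ± 0.476 CPM under vehicle to 18.3 ± 5.81 CPM under FGF18 (log2 fold change 2.81 ± 0.52 (SE), FDR = 1.98e-04). Among the largest falls were Arhgap31, a GTPase-activating protein for Rac1 and Cdc42, from 15.8 ± 2.20 CPM under vehicle to 2.51 ± 1.30 CPM under FGF18 (log2 fold change -2.56 ± 0.52 (SE), FDR = 5.76e-04), and Tead4, a transcription factor of the Hippo pathway, from 20.3 ± 7.47 CPM under vehicle to 5.74 ± 3.28 CPM under FGF18 (log2 fold change -1.74 ± 0.44 (SE), FDR = 0.00427). Tdrd5, a Tudor protein known from the germ line, fell from 31.4 ± 4.21 CPM under vehicle to 5.51 ± 3.04 CPM under FGF18 (log2 fold change -2.39 ± 0.37 (SE), FDR = 1.85e-05). Tead4 lost its call without vehicle replicate 3 (log2 fold change -1.45).

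The list for glycosaminoglycan synthesis held 2 rises and 4 falls among 13 tested genes, beside 12.9% and 12.8% over all tested genes. Not every member is an enzyme that builds the chains, and Fam20c and Gxylt1 are not. Fam20c, a secretory pathway kinase and paralogue of Fam20b, was at 401, 416 and 311 CPM under vehicle and 778, 817 and 979.5 CPM under FGF18 (log2 fold change 1.19 ± 0.14 (SE), FDR = 2.59e-07). Fam20b, which phosphorylates the xylose that links a chain to its core protein, was at 404, 386 and 486 CPM under vehicle and 259.9, 275 and 249 CPM under FGF18 (log2 fold change -0.71 ± 0.13 (SE), FDR = 2.00e-04). The groups of both paralogues were fully apart, in opposite directions. Gfpt2, which feeds hexosamine synthesis, fell from 95.95 ± 21.3 CPM under vehicle to 45.5 ± 3.16 CPM under FGF18 (log2 fold change -1.07 ± 0.20 (SE), FDR = 2.76e-04). Ugdh, which makes UDP-glucuronate, fell by 0.73 on the log2 scale, and Gxylt1, which adds xylose to O-linked glucose, fell by 0.79. Xylt2, which starts the chain by adding xylose, rose (0.72, FDR = 0.0141) and lost its call without vehicle replicates 2 and 3 or FGF18 replicate 1 in turn (log2 fold change 0.59 to 0.70).

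The N-glycan list held 16 tested genes, of which 1 rose and 1 fell, fewer than the 25.7% that passed over all tested genes. Mgat5, which adds a branch to N-glycans, was at 11.6, 17.7 and 28.98 CPM under vehicle and 1.64, 4.78 and 3.70 CPM under FGF18, with all FGF18 libraries below vehicle (log2 fold change -2.57 ± 0.53 (SE), FDR = 5.84e-04). Mgat4b, which makes another branch, rose from 11.5 ± 3.48 CPM under vehicle to 28.9 ± 4.79 CPM under FGF18 (log2 fold change 1.34 ± 0.41 (SE), FDR = 0.0159) and lost its call without vehicle replicate 3 (log2 fold change 1.09). The other 14 did not pass.

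Of the lysosomal genes some rose by a small amount and 0 fell. Of 35 listed genes 30 were tested, of which 11 rose and 19 did not pass, beside 12.9% rises over all tested genes, and 26 of the 30 had a positive log2 fold change, with a median of 0.45. Without vehicle replicate 3, FGF18 replicate 2 or FGF18 replicate 3 in turn, 7 of them passed. All FGF18 libraries were above vehicle for 15 of the 30, beside 20.2% of all tested genes. Psap (prosaposin), the precursor of sphingolipid activator proteins, was at 822, 906 and 830.5 CPM under vehicle and 1349, 1392 and 1602 CPM under FGF18 (log2 fold change 0.76 ± 0.11 (SE), FDR = 1.11e-05). Scpep1, a lysosomal carboxypeptidase, was at 233, 233 and 211 CPM under vehicle and 364, 370.2 and 347 CPM under FGF18 (log2 fold change 0.68 ± 0.13 (SE), FDR = 2.31e-04). Both were abundant and the groups did not overlap. Lamp2, a protein of the lysosomal membrane, had the largest rise of the list, at 8.70, 24.5 and 24.98 CPM under vehicle and 51.6, 51.7 and 38.2 CPM under FGF18 (log2 fold change 1.25 ± 0.28 (SE), FDR = 0.00153).

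Litaf, a protein of late endosomes and lysosomes, was at 33.3, 40.8 and 22.99 CPM under vehicle and 71.3, 73.7 and 64.1 CPM under FGF18 (log2 fold change 1.14 ± 0.24 (SE), FDR = 7.51e-04). Mcoln1, the lysosomal calcium channel also called TRPML1, was at 40.6, 35.4 and 25.98 CPM under vehicle and 59.02, 67.9 and 62.8 CPM under FGF18 (log2 fold change 0.92 ± 0.22 (SE), FDR = 0.0032). Gusb (beta-glucuronidase) was at 494, 479 and 426 CPM under vehicle and 449, 726 and 877 CPM under FGF18. For Gusb, FGF18 replicate 1 lay within the vehicle range while the other FGF18 libraries were above it, and the groups overlapped (log2 fold change 0.55 ± 0.17 (SE), FDR = 0.0197). Gusb lost its call without vehicle replicates 2 and 3 or FGF18 replicates 2 and 3 in turn (log2 fold change 0.32 to 0.57). Nagpa and Borcs6, which uncover the mannose 6-phosphate tag and position lysosomes, rose by 0.72 and 0.85 on the log2 scale. Among genes of the proton pump, the accessory subunit Atp6ap2 rose (0.46, FDR = 0.0362), while 3 other subunits did not pass, with Atp6v1a at 0.17 (FDR = 0.501), Atp6v1c1 at 0.16 (FDR = 0.584) and Atp6v0c at 0.25 (FDR = 0.15).

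Of 15 tested autophagy genes, 3 rose and 1 fell, about the 25.7% that passed over all tested genes, with a median of 0.34. Sqstm1 (p62), a cargo receptor of selective autophagy, was at 76.8, 97.9 and 75.95 CPM under vehicle and 162, 175 and 189.7 CPM under FGF18 (log2 fold change 1.07 ± 0.16 (SE), FDR = 1.37e-05). Tecpr1, which helps autophagosomes fuse with lysosomes, was at 4.35, 12.2 and 6.995 CPM under vehicle and 48.4, 59.3 and 25.9 CPM under FGF18 (log2 fold change 2.51 ± 0.44 (SE), FDR = 9.69e-05). In both genes the lowest FGF18 library exceeded the highest vehicle library. Tecpr1 passed the filter on low counts only through the FGF18 group, so its inclusion was not independent of the result. Wipi1, which acts early in autophagosome formation, rose (0.54, FDR = 0.0369) but lost its call without vehicle replicates 1 and 3 or FGF18 replicates 2 and 3 in turn (log2 fold change 0.35 to 0.59) and in 4 other fits. Stx17, the SNARE of autophagosomes, fell from 63.4 ± 2.94 CPM under vehicle to 36.5 ± 13.4 CPM under FGF18 (FDR = 0.0137) and lost its call without FGF18 replicate 3 (log2 fold change -0.53). Core conjugation genes such as Atg5 (0.49), Atg12 (0.18) and Atg3 (-0.32) did not pass.

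The study selected a set of lysosomal and autophagy genes as induced in these same libraries and listed CLEAR sites for most of them, the E-box-like sequence bound by TFEB and TFE3. Since the set was chosen on these samples, its rises are not independent evidence of direction. Of its members, 10 could be tested and named, of which 9 passed here as rises. The exception was Tmem175, a lysosomal potassium channel (0.80, FDR = 0.0532). The sites are shown because they differ in the 6-base core, which is in capitals where it has the E-box form CANNTG. Coordinates are those of the study's table, which names no build, and the reads were aligned to rn6.
Mcoln1 (chr12:2054680-2054693): cgctCACGTGaccg
Tecpr1 (chr12:12374375-12374388): gagtCACGTGtcct
Cd164 (chr20:46248820-46248833): cagtCAAGTGacaa
Cst3 (chr3:143223984-143223997): ctatCAAGTGatca
Gusb (chr12:30200435-30200448): acgtCACATGattt
Psap (chr20:29831180-29831193): ccgcCACCTGgccc
Tmem175 (chr14:2099938-2099951): tcgcCATCTGaccc
Sqstm1 (chr10:35715948-35715961): tggtcaggcggccg
Of these 8 sites, 7 held an E-box and 2 the symmetric core CACGTG. The listed site of Sqstm1 held no E-box on either strand, and Lamp2 and Litaf had no site in the table. Mcoln1 and Tecpr1, the pair with CACGTG, changed by 0.92 and 2.51 on the log2 scale, and Cd164 and Cst3, which share CAAGTG, by 0.56 and 0.68. Cd164 lost its call without vehicle replicates 2 and 3 or FGF18 replicate 2 in turn (log2 fold change 0.44 to 0.56) and in 1 other fit. The number of sites is too small for a relation to be read from these values.

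CACGTG was also searched in all promoter windows. It was found in 6 of 22 lysosomal promoter windows (27.3%) and 4 of 14 autophagy windows (28.6%), beside 11.6% for tested named genes and 6.65% for all promoters. It was also found in 10 of 27 windows of ribosome biogenesis genes (37.0%), a list in which genes fell. Over all named genes with a window, CACGTG was in 11.8% of those that rose and 12.8% of those that fell. The autophagy genes with it were Atg3, Atg5, Snap29 and Tbk1, none of which passed. Of the lysosomal genes with it, Mcoln1, Cd164, Nagpa and Borcs6 rose, while Tmem175 and Sumf1 did not pass. The 150 bases before the start are printed for the lysosomal genes Mcoln1 (chr12:6358108-6358257, plus strand) and Nagpa (chr10:10886581-10886730, plus strand), with CACGTG in capitals.
Mcoln1: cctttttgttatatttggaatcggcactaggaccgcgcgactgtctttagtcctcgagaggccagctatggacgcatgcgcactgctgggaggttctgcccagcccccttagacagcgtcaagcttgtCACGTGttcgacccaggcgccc
Nagpa: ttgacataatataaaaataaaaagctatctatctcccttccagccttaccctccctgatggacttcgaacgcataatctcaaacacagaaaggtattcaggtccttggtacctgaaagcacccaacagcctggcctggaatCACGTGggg
The motif lay at -22 in Mcoln1 and at -9 in Nagpa. The CLEAR site listed for Mcoln1 holds a separate CACGTG, and the first of its 14 bases lies at position 1, the start itself. The first base of the site of Tmem175 lies at -99. The sites listed for Cd164, Cst3, Gusb, Sqstm1 and Tecpr1 were not within these windows.

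Of 28 tested genes of ER folding and the unfolded protein response, 3 rose and 4 fell, about the 25.7% that passed over all tested genes, with a median of 0.02. The falls numbered 1 without vehicle replicate 3 or FGF18 replicate 1 in turn and 2 without vehicle replicate 1. Rrbp1, the ribosome-binding protein of the rough ER, was at 1448, 1622 and 1594 CPM under vehicle and 1079, 1024 and 665 CPM under FGF18 (log2 fold change -0.75 ± 0.14 (SE), FDR = 2.97e-04). Kdelr2, a receptor that returns proteins to the ER, fell from 79.8 ± 12.9 CPM under vehicle to 48.04 ± 8.14 CPM under FGF18 (FDR = 0.0115), and it lost its call without vehicle replicate 3 or FGF18 replicate 1 in turn (log2 fold change -0.64 to -0.61). Calu, a calcium-binding protein of the ER, fell by 0.39 on the log2 scale and lost its call without vehicle replicates 1 and 3 or FGF18 replicate 1 in turn (log2 fold change -0.39 to -0.24). Creb3l1, an ER-bound transcription factor for secretory and collagen genes, was at 11.6, 9.52 and 6.995 CPM under vehicle and 28.7, 32.5 and 32.03 CPM under FGF18 (log2 fold change 1.75 ± 0.31 (SE), FDR = 1.12e-04). Its groups were well apart at a low level. Cnpy2 (0.50) and Sdf2l1 (0.51), which assist folding, rose, of which Sdf2l1 lost its call without vehicle replicate 3 or FGF18 replicate 2 in turn (log2 fold change 0.42 to 0.46). The stress factor Ddit3 (-0.07, FDR = 0.786) and the chaperone Canx (-0.16, FDR = 0.402) did not pass.

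Transport from the ER to the Golgi showed few calls. Of 19 tested genes, 1 rose and 0 fell, below the 25.7% that passed over all tested genes, with a median of -0.14. Cog1, a subunit of the Golgi tethering complex COG, was the gene that rose (0.75, FDR = 0.0385). Cog1 lost its call without vehicle replicates 1 and 2 or FGF18 replicates 2 and 3 in turn (log2 fold change 0.54 to 0.72) and in 3 other fits. The COPI subunit Copa was at 159 ± 19.97 CPM under vehicle and 159 ± 24.2 CPM under FGF18, so the means were nearly equal, and the Golgi SNARE Gosr2 was at 0.04 (FDR = 0.887). Of 12 tested sterol and lipid genes, again below that share, 0 fell and 1 rose. This was Kdsr, an enzyme of sphingolipid synthesis (log2 fold change 2.15 ± 0.57 (SE), FDR = 0.00565), while Degs1, a later enzyme of the same pathway, did not pass (0.29, FDR = 0.256). No gene of this list passed as a rise without FGF18 replicate 1 or 2 in turn, or with only the 6 WT libraries in the model.

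The test of whether a response differed between genotypes was the interaction of FGF18 and genotype, given as the log2 fold change in FGFR3/4KO RCS minus that in WT RCS. It passed for 802 of 7378 genes (10.9%) and for 10.2% of those with a name, among them 351 of the 950 genes that rose in WT RCS (36.9%) and 412 of the 948 that fell (43.5%). The WT change that chose these genes is part of the interaction, so their larger shares were partly fixed by that choice. The same holds for the list members below that were chosen by their WT call. The median log2 fold change in FGFR3/4KO RCS was 0.06 over genes raised in WT RCS and -0.04 over those that fell. In FGFR3/4KO RCS itself edgeR's quasi-likelihood test called 0 genes, where 478 had an unadjusted p under 0.05, DESeq2 called 0, and edgeR without a filter on low counts called 9 up and 11 down. The FGFR3/4KO vehicle libraries held 373964 to 925006 reads on genes, beside 669585 to 947730 in the WT vehicle libraries. In the shallowest, FGFR3/4KO vehicle replicate 2, 3 reads corresponded to 8.02 CPM. The part of depth in the number of calls was not tested. In the mitosis list the interaction passed for 15 of the 18 genes that fell, and in the replication list for 9 of 17. In the lysosome list it passed for 4 of the 11 that rose.

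Genes with large changes in WT RCS showed the difference between genotypes directly. The log2 fold change of Cdkn2b was 3.73 in WT RCS, against 0.02 without FGFR3 and FGFR4 (interaction -3.71, FDR = 7.03e-08). Phlda1 changed by 3.18 and 0.43 (interaction -2.74, FDR = 1.80e-09). For Foxm1 the values were -1.86 and -0.16 (interaction 1.70, FDR = 2.41e-05). Etv5 kept a positive value without FGFR3 and FGFR4, 2.64 beside 0.78 (interaction -1.86, FDR = 0.00126). It also had a higher vehicle level there, 56.1 ± 3.18 CPM against 10.9 ± 2.49 CPM in WT RCS (mean ± SD, n = 3 each). So did Scin (mean 20.1 against 1.91 CPM), Creb3l1 (32.7 against 9.37), Lamp2 (42.0 against 19.4), Col6a2 (449 against 192) and Timp2 (552 against 315). Cdkn2b (34.1 against 28.5), Phlda1 (116 against 132) and Flot1 (10.9 against 14.7) stood closer to WT RCS under vehicle. The part of the starting level in the interactions was not tested.

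For some genes a difference between the genotypes was not shown. Sat1, which catabolizes polyamines, was at 8.70, 13.6 and 11.99 CPM under vehicle and 84.4, 70.8 and 81.3 CPM under FGF18 in WT RCS (log2 fold change 2.76 ± 0.31 (SE), FDR = 1.82e-07). In FGFR3/4KO RCS its log2 fold change was 1.17, and the interaction did not pass (interaction -1.59, FDR = 0.0884). Among lysosomal genes, Psap (0.76 and 0.04, interaction -0.73, FDR = 0.0029) differed, while Mcoln1 (0.92 and 0.54, interaction -0.37, FDR = 0.598), Gusb (0.55 and 0.32, interaction -0.23, FDR = 0.637) and Cst3 (0.68 and 0.37, interaction -0.31, FDR = 0.283) did not pass. The FGFR3/4KO cells were 1 clone, so the genotype and the clone cannot be told apart.

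**Figure D4:**
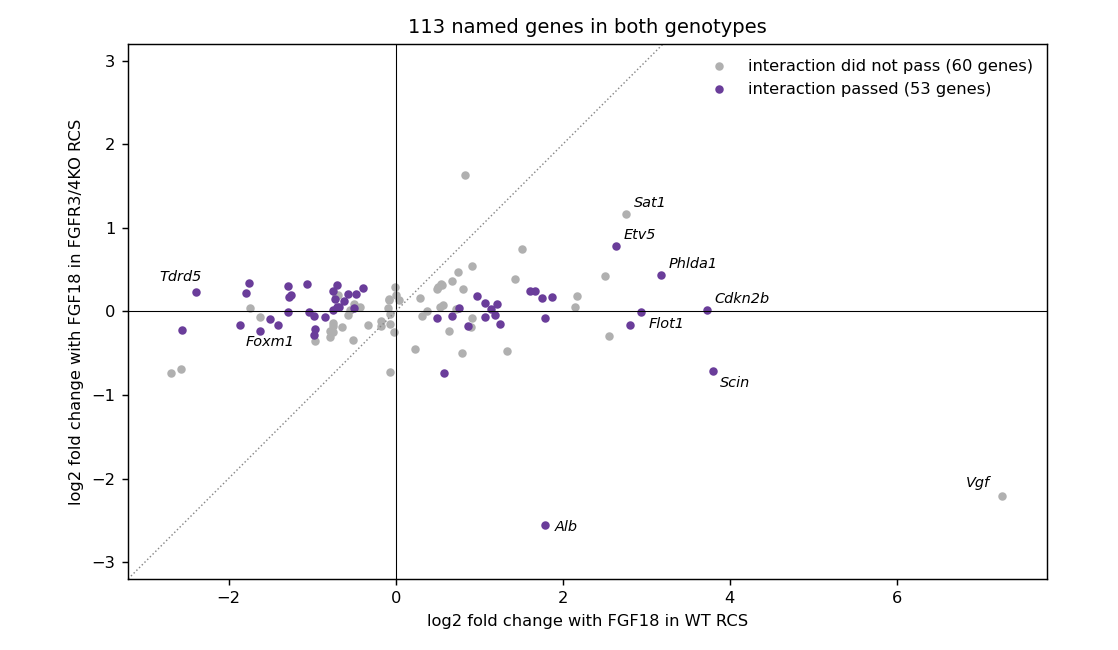
Log2 fold change with FGF18 in FGFR3/4KO RCS (vertical axis) against that in WT RCS (horizontal axis) for the 113 genes named by rule, purple where the interaction passed (53 genes) and grey where it did not (60 genes), with equal values on the dotted line. Most genes with a large change in WT RCS lie near 0 on the vertical axis, Sat1 and Etv5 lie above it, and Vgf and Alb lie below it. In FGFR3/4KO RCS Vgf was at 1.53, 0 and 0 CPM under vehicle and 0 in each FGF18 library, so its position there shows no fall.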

How the data were processed

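Total RNA of WT RCS and FGFR3/4KO RCS, cultured overnight in 5% ABS with or without FGF18 in 3 biological replicates per condition, was prepared with a QuantSeq 3′ mRNA kit. The labels give the FGF18 dose as 50 µg/ml, while the study's methods give the same figure in ng/ml. The authors used Trim Galore for trimming, STAR for alignment to rn6 and htseq-count for counting per gene (versions not given in the sources used here), and the deposited files hold these raw counts, not normalised. The methods name a Gencode gene model, although the identifiers are rat Ensembl genes. Rows of reads not assigned to a gene were left out, of which the class of low-quality alignments took 77.0 to 79.8% of reads in WT RCS and genes 12.5 to 14.5%.

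Symbols came from 1998 identifier and symbol pairs in a supplementary table of the study, whose own comparisons were not used. Genes were filtered with filterByExpr (minimum count 10, minimum total 15), which left 7378 genes holding 98.4 to 98.7% of WT reads, scaled by TMM and tested with edgeR 4.0.16 (R 4.3.3) by the quasi-likelihood test in 1 model of all 12 libraries (common biological coefficient of variation 13.1%), with Benjamini-Hochberg adjustment over all tested genes and a threshold of 0.05. SE is that of the log2 fold change. The script was tested on simulated data. Groups of 3 cannot give an exact permutation p below 0.1.

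Named genes were the 10 largest rises and the 10 largest falls with groups that did not overlap, the 3 members of each of 23 lists with the smallest FDR in each direction (the 2 most abundant where fewer than 2 were called), all tested members of the ERK, cell cycle inhibitor and chondrocyte lists, and the genes with CLEAR sites, 113 in all. Other genes were named after their values were seen, to complete a list or to show a sequence. Members and lists were chosen with earlier results of these data known. Some genes are not reported here. Promoters were read from RefSeq (GRCr8). Other settings tried were upper-quartile scaling, DESeq2 1.42.0, the likelihood-ratio test of edgeR, no filter on low counts, at least 1 CPM in 3 libraries, a replicate block, only the 6 WT libraries, and each library left out in turn. Figures were drawn with matplotlib 3.10.9.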

Additional observations from a re-analysis of the deposited data

Results flagged for a closer look

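The response to FGF18 differed between WT and FGFR3/4KO RCS, by the interaction test (edgeR, FDR under 0.05), in 802 genes, of which 53 belong to the genes named by rule. Values are the log2 fold change in FGFR3/4KO RCS minus that in WT RCS, so that a rise seen in WT RCS but smaller in FGFR3/4KO RCS gives a negative value. Some of these genes, such as Scin and Creb3l1, stood higher under vehicle in FGFR3/4KO RCS than in WT RCS, as given above.

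Among genes that rose in WT RCS, the difference was -4.51 for Scin, -3.71 for Cdkn2b, -2.97 for C1qtnf1, -2.94 for Flot1 and -2.74 for Phlda1. It was -1.87 for Flcn, -1.86 for Etv5, -1.42 for Gadd45a and -1.37 for Btg1. For matrix, secretory and adhesion genes it was -1.71 for Col6a2, -1.59 for Creb3l1, -1.23 for Fam20c, -1.12 for Arpc1b, -1.04 for Timp2, -0.97 for Podnl1 and -0.79 for Serpinb8. For lysosomal and autophagy genes it was -1.39 for Lamp2, -1.14 for Sqstm1, -1.11 for Litaf, -0.73 for Scpep1 and -0.73 for Psap. It was -0.58 for Cox7a2l, and -1.30 for Ets2, which did not pass in WT RCS. Alb, a marker of another cell type whose WT groups overlapped, gave -4.35.

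Among genes that fell in WT RCS, the difference was 2.09 for Aurkb, 1.70 for Foxm1, 1.60 for Rfc3, 1.45 for Parpbp, 1.42 for Spc25, 1.38 for Ncapg2, 1.28 for Nusap1, 1.25 for Chaf1b, 1.03 for Rfc2 and 0.87 for Ung. For genes of growth and protein turnover it was 0.93 for Vars, 0.78 for Eprs, 0.75 for Pa2g4, 0.74 for Tsr1, 0.70 for Lyar, 0.68 for Psmd11 and 0.54 for Psmd12. For matrix and secretory genes it was 1.40 for Gfpt2, 0.997 for Kdelr2, 0.79 for Fmod, 0.76 for Fam20b, 0.74 for Prelp and 0.67 for Calu. It was 2.62 for Tdrd5, 2.33 for Arhgap31, 2.01 for Usp2, 1.45 for Sh2b2, 1.01 for Limk1 and 0.77 for Mapk14.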

How the results depend on the processing

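The main counts were 950 rises and 948 falls in WT RCS. They were 1029 and 1005 by the likelihood-ratio test, 733 and 786 by DESeq2 (731 and 784 shared with the main calls), 969 and 937 with upper-quartile scaling, 972 and 974 without a filter, 989 and 1005 with at least 1 CPM, and 923 and 967 with only the 6 WT libraries. Leaving out 1 library gave 643 to 871 rises and 679 to 874 falls, both lowest without vehicle replicate 3. The replicate numbers did not pair the samples (correlations of same-numbered deviations -0.07, -0.02 and -0.09), and with the replicate block 876 genes rose and 884 fell, and the interaction gave 363 and 311. In FGFR3/4KO RCS, the likelihood-ratio test called 3 falls, no filter 9 rises and 11 falls, and the 1 CPM filter 1 fall. Leaving out 1 library gave 304 to 513 positive and 256 to 367 negative interactions.

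Of 88 called genes named by rule, 63 kept direction and call in every alternative in which they were tested. The sign turned for genes that had not passed. Copa went to -0.00322 (DESeq2), -0.00331 (replicate block), -0.0136 (no filter), -0.0183 (1 CPM) and -0.0167 (WT libraries only). Leaving out 1 library in turn gave log2 fold changes of -0.11 to 0.094 for Copa, -0.23 to 0.026 for Agpat1, -0.51 to 0.10 for Btg2, -0.17 to 0.035 for Col11a2, -0.18 to 0.059 for Frs2, -0.067 to 0.10 for Gosr2, -0.17 to 0.13 for Mdm2 and -0.067 to 0.0199 for Mgp. The causes were not tested. Dusp1 passed in 4 alternatives, Tmem175 in 2, Syt1 in 2 and Matn2 in 1. Falls in the cell cycle inhibitor list numbered 1 whichever library was left out. Depth limited low genes, with a median SE of 0.42 in the lowest of 4 groups by level.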

Other observations

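Further groups were formed from gene symbols alone, after their values had been seen, and are given as values with no test of a group. Of 8 tested genes of the nuclear pore, 3 fell, 0 rose and 5 did not pass, beside 12.8% falls over all tested genes, and their median log2 fold change was -0.35. Nup107 (-1.52) and Nup85 (-1.31), of the scaffold of the pore, and Tpr (-0.39), of its basket, fell. Of 14 splicing factors 4 fell and 0 rose, beside the same 12.8%. These were Srsf2 (-0.71), Hnrnpd (-0.61), Tra2b (-0.57) and Hnrnph1 (-0.35). The cytosolic ribosomal proteins with a name were only Rpl23 (0.47) and Rplp0 (0.35), and both rose, beside 12.9% rises over all tested genes. Of 20 zinc finger proteins and 9 Rab GTPases, 0 passed, beside 25.7% over all tested genes.

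Solute carriers went both ways, with 4 rises and 4 falls among 23, beside 12.9% and 12.8% over all tested genes. The sodium bicarbonate cotransporters Slc4a4 (1.88) and Slc4a7 (1.22) rose, and Slc7a1 (-1.24), a transporter of cationic amino acids, fell. Cd82, a tetraspanin of the plasma membrane, was at 114, 122 and 113 CPM under vehicle and 445, 599.8 and 683 CPM under FGF18 (log2 fold change 2.30 ± 0.18 (SE), FDR = 1.93e-10), and the groups did not overlap. Alcam, an adhesion molecule, rose as well (1.66). In polyamine metabolism the catabolic enzyme Sat1 rose (2.76) and Odc1, the first enzyme of synthesis, fell (-0.84). Of 3 circadian genes, Usp2 (-1.79), a deubiquitinase, and Cry1 (-1.43), a repressor of the clock, fell, beside 12.8% falls over all tested genes. Of 3 tubulin genes, Tuba4a (-1.34) and Tube1 (-1.14) fell and Tubg2 (0.89) rose, beside the same 12.8% falls and 12.9% rises. Hoxd9, a homeobox factor of limb patterning, rose (2.01).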
